A study of Mus musculus with 39 samples.

Results

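Cell division genes were examined here as a set of 37 genes, 12 of which act in DNA replication and the others in mitosis, in array profiles of mouse lumbar dorsal root ganglia (DRG). The members were chosen by symbol, as all probe sets annotated to one of the 37 genes. Of the 37 genes, 36 had at least 1 of their 85 probe sets to themselves and are the members measured below, of 18193 genes with a probe set of their own on the array. Ccnb1, cyclin B1, had none and is not analysed here. The values are linear, background-corrected and normalized intensities of Affymetrix Mouse Genome arrays, and each member is represented by its brightest probe set within a set of arrays.

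The 39 arrays fall into 3 sets. In the first, 16 arrays came from populations sorted from pooled lumbar DRG (L1 to L6) of newborn (p0) mice carrying TrkCGFP, a BAC transgene in which regulatory elements of the NT3 receptor TrkC drive GFP, so that TrkCGFPon cells are enriched for proprioceptors, the sensory neurons that innervate muscle, and TrkCGFPoff cells are those without GFP. The 4 genotypes were NT3-/-Bax-/- (no neurotrophin 3, and no Bax, without which DRG neurons do not die when NT3 is absent), mlcNT3 (a transgene with a myosin light chain promoter that raises NT3 in skeletal muscle), Bax-/- (the control that shares the Bax deletion with the NT3 mutant) and wild-type, each with 2 TrkCGFPon and 2 TrkCGFPoff arrays of about 350 cells. The second set holds 11 arrays of about 100 cells each from wild-type p0 mice with TrkCGFP, sorted from single segments: 3 of L5 TrkCGFPon, 3 of L5 TrkCGFPoff, 2 of L1 TrkCGFPon and 3 of L1 TrkCGFPoff. The third holds 12 arrays of whole DRG of wild-type adult males, 3 each of L5 and L1 from mice that had a running wheel for 5 weeks, starting at 5 weeks of age, and 3 each of L5 and L1 from littermates caged without one. The methods describe these ganglia as unsorted, but the titles of the arrays carry a TrkC sign, plus for every L1 array and minus for every L5 array. Proprioceptor markers were higher in the arrays with the minus sign, summing to 2798 to 3129 in L5 with a wheel against 1673 to 1715 in L1 with one, and to 2418 to 3044 in L5 without a wheel against 1534 to 1656 in L1 without one. If the signs did mark a sort, level and sort could not be told apart in these arrays. All mice are labelled as of a mixed 129/C57Bl6 background, although the methods name the adult males as C57Bl6. The methods describe a gate on fluorescence followed by a gate on size for the GFPon population, and name no size gate for the GFPoff population. Neither Bax nor Ntf3, which encodes NT3, has a probe set of its own, so the deletions could not be checked on these arrays. The labels do not say whether replicate arrays came from separate animals, so the p-values measure the spread between these arrays, which may be technical.

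Cells that will divide first load the Mcm2 to Mcm7 helicase onto replication origins with the help of Cdc6 and Cdt1, and then copy their DNA with the clamp Pcna and nucleotides supplied by Rrm1, Rrm2 and Tyms. Mitosis follows, driven by Cdk1 with its cyclins Ccna2, Ccnb1 and Ccnb2 and by kinases of the Aurora, Polo, Nek and Bub families, and ends when Cdc20 and Ube2c, which act with the anaphase-promoting complex, mark cyclins for destruction and Prc1, Ect2 and Anln divide the cell. DRG neurons are postmitotic at birth, while glia, endothelial cells, fibroblasts and macrophages of the ganglion can still divide, and genes of mitosis are commonly read as marks of dividing cells.

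Both groups of members are known for short promoter elements, and these are shown for 6 members chosen after their values were seen. Mki67, Top2a and Cdk1 rose in TrkCGFPoff cells of NT3-/-Bax-/- mice, and Mcm5, Mcm6 and Rrm1 rose there and in TrkCGFPon cells of the same mice. Mcm7, which rose in both populations too, has a pair of annotated starts and is not shown. The sequences are the 170 bases before the annotated start, from RefSeq on GRCm38.p6, read 5′ to 3′ on the gene's strand. Capitals mark, on either strand, the cell cycle homology region (CHR, searched as TTTGAA), the CCAAT box (searched as CCAAT) and 4 E2F spellings, which are TTTGGCGC, then TTTCCCGC, then TTTGCCGC, and lastly TTTCGCGC. Reverse complements are in capitals too, and the long capital runs of Mcm5 and Mcm6 are E2F spellings on both strands that overlap. Mki67, which coats mitotic chromosomes, lies at chr7:135716380-135716549 (minus strand), Top2a, which untangles DNA, at chr11:99024190-99024359 (minus strand), and Cdk1, the mitotic kinase, at chr10:69352913-69353082 (minus strand). The helicase genes Mcm5 and Mcm6 lie at chr8:75109339-75109508 (plus strand) and chr1:128359706-128359875 (minus strand), and Rrm1, which encodes the large subunit of ribonucleotide reductase, at chr7:102441525-102441694 (plus strand).
Mki67: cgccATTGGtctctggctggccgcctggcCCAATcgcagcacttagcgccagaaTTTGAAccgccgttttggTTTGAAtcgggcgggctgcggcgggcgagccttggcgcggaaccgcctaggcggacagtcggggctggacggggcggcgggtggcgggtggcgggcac
Top2a: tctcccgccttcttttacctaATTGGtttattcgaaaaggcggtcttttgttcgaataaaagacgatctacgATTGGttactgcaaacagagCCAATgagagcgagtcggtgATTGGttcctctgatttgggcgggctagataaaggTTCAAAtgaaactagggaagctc
Cdk1: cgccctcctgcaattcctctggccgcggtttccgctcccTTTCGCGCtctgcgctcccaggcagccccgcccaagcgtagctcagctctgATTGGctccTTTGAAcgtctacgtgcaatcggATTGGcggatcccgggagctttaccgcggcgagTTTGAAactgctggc
Mcm5: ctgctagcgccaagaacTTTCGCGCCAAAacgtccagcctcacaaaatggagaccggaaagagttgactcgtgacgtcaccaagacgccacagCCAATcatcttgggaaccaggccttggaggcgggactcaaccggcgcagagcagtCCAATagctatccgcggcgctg
Mcm6: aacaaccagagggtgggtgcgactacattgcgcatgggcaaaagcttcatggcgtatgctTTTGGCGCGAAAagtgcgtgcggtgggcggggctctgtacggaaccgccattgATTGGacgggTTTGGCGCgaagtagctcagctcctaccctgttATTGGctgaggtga
Rrm1: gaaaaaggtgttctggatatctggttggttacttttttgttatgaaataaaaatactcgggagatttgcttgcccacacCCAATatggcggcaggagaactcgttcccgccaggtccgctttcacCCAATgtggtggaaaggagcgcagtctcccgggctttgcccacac
In the 250 bases before the start, TTTGAA stood in 9 of 24 windows of mitosis members (37.5%) and 1 of 12 windows of replication members (8.33%), against 16% of 32851 windows of all genes. CCAAT stood in 21 mitosis windows (87.5%) and 9 replication windows (75%), against 33.8% of all windows. The E2F spellings stood in 1 mitosis window (4.17%), that of Cdk1, and 4 replication windows (33.3%), against 1.86%. All 9 mitosis windows with TTTGAA also held CCAAT, a pair found in 5.55% of all windows. These counts are over 36 windows of 33 members (Mcm7, Prc1 and Ect2 have a pair each, and the windows include Ccnb1). A match is a run of letters and not a site shown to be bound.

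More members changed in TrkCGFPoff cells of NT3-/-Bax-/- mice than in any other comparison between genotypes. Against Bax-/- TrkCGFPoff cells, which share the Bax deletion, 27 of the 36 members rose and 0 fell in these cells, where 9.91% of all 45037 probe sets rose and 11.8% fell (limma on log2 values, adjusted p under 0.05 over all probe sets). The median log2 difference of the members was 1.38, against 0.01 for all probe sets. Of the mitosis members 18 of 24 rose, with a median of 1.96, and of the replication members 9 of 12, with a median of 0.93. The arrays profile bulk populations, and more cells of a dividing type cannot be told apart from more RNA per cell.

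Mki67 read 3472 and 4762 in the NT3-/-Bax-/- TrkCGFPoff arrays, against 252 and 413 in the Bax-/- TrkCGFPoff arrays, a log2 difference of 3.66 ± 0.53 (SE, adjusted p = 0.000584). Top2a read 1411 and 1998 in NT3-/-Bax-/- and 121 and 208 in Bax-/- arrays (3.40 ± 0.47, adjusted p = 0.00043). Both NT3-/-Bax-/- arrays thus stood far above both Bax-/- arrays for the most widely used marks of proliferation. Among the cyclins and kinases, Ccna2, the cyclin of S phase and G2, read 741 and 860 in NT3-/-Bax-/- against 77.9 and 121 in Bax-/- TrkCGFPoff cells (3.04 ± 0.24, adjusted p = 2.1e-05). Cdk1 read 923 and 1144 against 92.5 and 108 (3.36 ± 0.30, adjusted p = 3.22e-05). Ccnb2, a B-type cyclin that binds Cdk1, read 612 and 1042 against 55.7 and 69.6 (3.68 ± 0.38, adjusted p = 7.69e-05). Each of these 3 genes was high in both NT3-/-Bax-/- arrays, with no overlap with the Bax-/- arrays. Aurkb, the kinase of the chromosomal passenger complex, read 193 and 209 in NT3-/-Bax-/- against 35.1 and 24.0 in Bax-/- arrays (2.79 ± 0.24, adjusted p = 2.76e-05).

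Members that act beside or after these kinases were also higher. Ube2c, the ubiquitin-conjugating enzyme of the anaphase-promoting complex, read 103 and 102 in NT3-/-Bax-/- against 36.6 and 44.3 in Bax-/- TrkCGFPoff arrays (log2 difference 1.35 ± 0.18, adjusted p = 0.000303), and Cdc20, an activator of that complex, read 1220 and 1837 against 202 and 221 (2.82). Birc5, survivin, another passenger subunit, read 168 and 293 against 40.9 and 48.9 (2.31 ± 0.31, adjusted p = 0.000344). Cdca3, an F-box protein that acts in mitotic entry, read 185 and 218 against 55.5 and 46.1 (1.99 ± 0.24, adjusted p = 0.000195). All of these were higher in every NT3-/-Bax-/- array than in any Bax-/- array. Of the spindle and cytokinesis members, Nusap1, which bundles spindle microtubules, read 632 and 1092 against 84.7 and 86.3 (3.28), and Anln, the contractile ring scaffold, 676 and 922 against 249 and 256 (1.64). The checkpoint kinases Bub1 and Bub1b rose by 1.93 and 3.04 and the kinetochore protein Cenpf by 2.54. The Bub1b probe set was picked as the brightest over all pooled arrays, those of NT3-/-Bax-/- included. In wild-type TrkCGFPoff arrays it averaged 34.3, below the other Bub1b probe sets (59.8 and 40.9), so the size of its rise depends on that choice. Smaller increases were called for Prc1, which bundles the central spindle (1.04), Cdca8, a passenger subunit (0.99), and the Polo kinase Plk1 (0.85).

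Replication members were raised too. Rrm2, the small ribonucleotide reductase subunit made in S phase, rose most among them, at 1225 and 1355 in NT3-/-Bax-/- against 213 and 331 in Bax-/- TrkCGFPoff arrays (log2 difference 2.28 ± 0.24, adjusted p = 9.22e-05). Mcm7 read 3347 and 4434 against 690 and 1124 (2.13 ± 0.32, adjusted p = 0.000722), and Mcm5 read 1026 and 1184 against 312 and 374 (1.69 ± 0.25, adjusted p = 0.000664). Both were high in both NT3-/-Bax-/- arrays. Cdt1, Cdc6, Rrm1, Pcna, Mcm2 and Mcm6 rose by 0.72 to 1.41. The Mcm6 probe set, too, was picked with the NT3-/-Bax-/- arrays included. In wild-type TrkCGFPoff arrays it averaged 698, below another Mcm6 probe set (843), so the size of its rise depends on that choice. Mcm3, Mcm4, Tyms, Aurka, Nek2, Ttk, Cenpe, Tpx2 and Ect2 were not called, with differences of -0.31 (Aurka) to 0.91 (Ect2). Among these, Aurka and its activator Tpx2 act in spindle assembly, Ttk in the spindle checkpoint, Cenpe as a kinetochore motor and Tyms in making thymidylate. For Mcm3, Tyms, Nek2, Ttk, Cenpe and Tpx2 another probe set than the brightest did rise, by up to 2.34 for Tpx2, so the probe sets of these genes disagree. Over all 85 member probe sets, 49 rose and 0 fell. By role, called members were 6 of 8 for origin licensing and helicase, 3 of 4 for DNA synthesis and nucleotide supply, 7 of 10 for mitotic cyclins and kinases, both of 2 for the anaphase-promoting complex, 3 of 4 for the centromere, 3 of 5 for spindle and cytokinesis, and all 3 of the remainder (Mki67, Top2a and Cdca3).

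**Figure D1:**
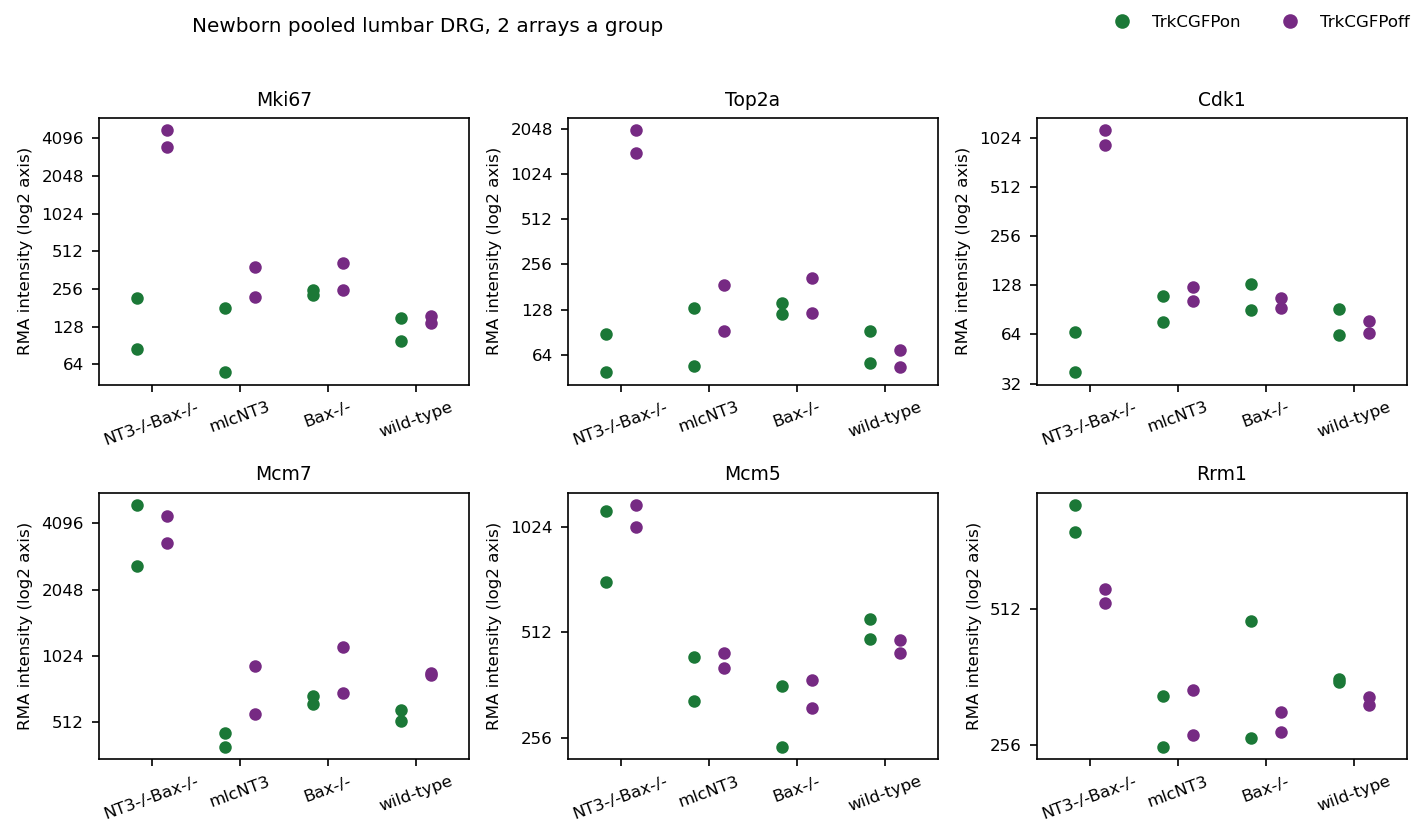
Intensity (log2 axis) of Mki67, Top2a, Cdk1, Mcm7, Mcm5 and Rrm1 on each of the 16 pooled p0 arrays, 1 point per array, by genotype with TrkCGFPon left of TrkCGFPoff. Mki67, Top2a and Cdk1 are high only on the 2 NT3-/-Bax-/- TrkCGFPoff arrays (Mki67 3472 and 4762), while Mcm7, Mcm5 and Rrm1 are also high on the 2 NT3-/-Bax-/- TrkCGFPon arrays (Mcm7 4975 and 2621).

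Set against wild-type TrkCGFPoff cells, with the same NT3-/-Bax-/- arrays, 30 members rose and 0 fell, where 12.1% of all probe sets rose and 14.4% fell, with a median of 1.57, against -0.08 for all probe sets. Mki67 and Top2a, at 135 and 156 and at 53.0 and 68.5 in the wild-type arrays, each differed by 4.80, and Cdk1, at 77.6 and 65.7 in wild-type, by 3.85 ± 0.30 (adjusted p = 1.12e-05). All 8 origin licensing and helicase members were called there, Mcm3 and Mcm4 included, and so was Ect2. Since both comparisons use the same NT3-/-Bax-/- arrays, they are not independent. For 25 of the 36 members both NT3-/-Bax-/- TrkCGFPoff arrays stood above all 14 other pooled arrays, which was so for 7.93% of all probe sets. The exceptions were Aurka, Cdt1, Cenpe, Mcm5, Mcm6, Mcm7, Nek2, Rrm1, Tpx2, Ttk and Tyms. In NT3-/-Bax-/- TrkCGFPon cells 2 members did so, Rrm1 and Tyms (6.89% of all probe sets). In each of the other 6 groups 0 did, where 0.768% to 3.97% of all probe sets did. At those shares few or none of 36 members would be expected.

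Other cell cycle genes, in lists that do not hold the members, moved in part with them. Of 60 other mitosis genes, 38 rose and 2 fell in NT3-/-Bax-/- against Bax-/- TrkCGFPoff cells, with a median of 1.25, among them the mitotic kinase Pbk (log2 difference 3.55 ± 0.37), the cohesin regulator Cdca5 (2.91), the kinetochore subunit Spc25 (2.76) and the abscission protein Cep55 (2.56). Of 38 other replication genes, 10 rose and 0 fell, with a median of 0.57 and the largest changes in Tipin (1.86), Uhrf1 (1.77), Prim1 (1.56) and Rpa3 (1.56). Regulators of the cycle were mixed, with 11 of 37 higher and 7 lower. The D-type cyclin Ccnd2 rose by 3.12 and the repressor E2f7 by 1.74, the inhibitor of cyclin-dependent kinases Cdkn1c also rose, by 2.80, and the transcription factor E2f3 fell by 1.89.

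Markers of other cell types moved in the same comparison. Fibroblast and pericyte markers rose in 7 of 9 genes, and their summed intensity was 31524 to 47539 in NT3-/-Bax-/- against 2801 to 5143 in Bax-/- TrkCGFPoff arrays, with Col1a1 at 3564 and 5434 against 48.7 and 103. Endothelial markers rose in 9 of 10 genes, summing to 3060 to 3368 against 694 to 818, with Cdh5 at 296 and 370 against 45.6 and 79.9. Schwann and satellite glia markers rose in 10 of 14 genes and fell in 1, summing to 44856 to 52375 against 21146 to 23643, with Sox10 at 692 and 871 against 366 and 478. Markers of fibroblasts, endothelium and glia were thus raised beside the cell division genes. Pan-neuronal markers fell in 4 of 11 genes and summed to 43445 to 53195 in NT3-/-Bax-/- against 70789 to 74937 in Bax-/- arrays. Nociceptor markers fell in 1 of 6 genes, summing to 12297 to 24868 against 31330 to 32820, and proprioceptor markers rose in 2 of 5, summing to 944 to 1301 against 335 to 346. Macrophage markers were called in 0 of 11 genes by limma. Their sums were 15880 in replicate 1 and 588 in replicate 2 of NT3-/-Bax-/-, against 440 to 1543 in Bax-/-, with Csf1r at 8320 and 290 against 114 and 962. Leaving out that replicate 1 leaves 1 array in its group, so no count of called members is drawn from that fit here. Red blood cell markers rose in 1 of 5 genes. The part of these cell types in the result was not tested.

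**Figure D2:**
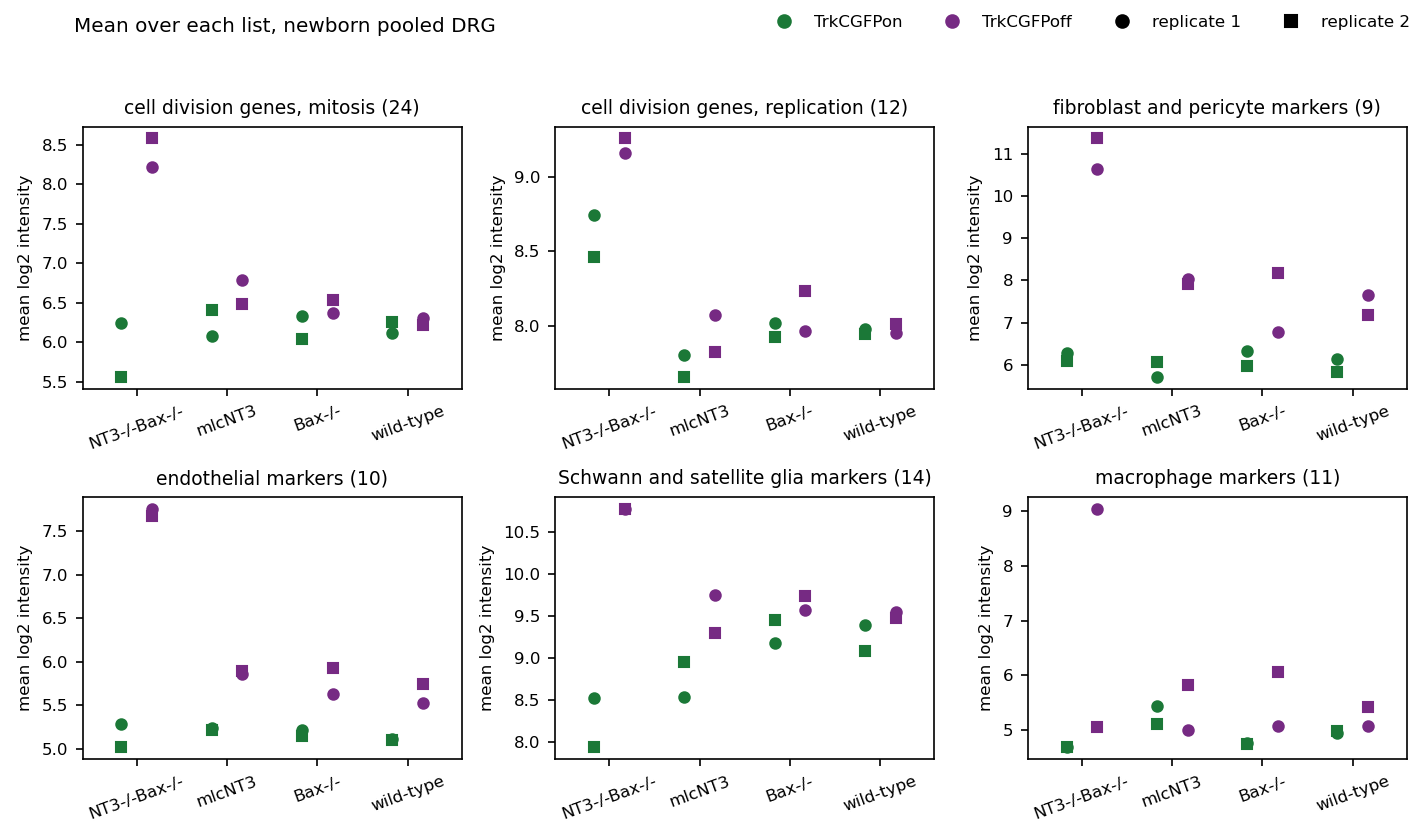
Mean log2 intensity of the 24 mitosis members, the 12 replication members and 4 lists of non-neuronal markers on each pooled p0 array (circle, replicate 1; square, replicate 2), by genotype with TrkCGFPon left of TrkCGFPoff. The NT3-/-Bax-/- TrkCGFPoff arrays stand highest for mitosis members and for fibroblast, endothelial and glia markers, and only replicate 1 stands out for macrophage markers (summed intensity 15880 against 588 in replicate 2).

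In TrkCGFPon cells of the same mice fewer members changed, and in both directions. Against Bax-/- TrkCGFPon cells, 4 members rose and 2 fell in NT3-/-Bax-/- TrkCGFPon cells, where 9.05% of all probe sets rose and 9.17% fell, and the median of the members was -0.09, against 0.01 for all probe sets. Over 36 members these counts are near the shares of all probe sets, so the counts alone do not set the members apart. The 4 that rose all act in replication, 3 of them in the helicase, and the 2 that fell act in mitosis. Mcm7 read 4975 and 2621 in NT3-/-Bax-/- against 667 and 618 in Bax-/- TrkCGFPon arrays (log2 difference 2.49 ± 0.32, adjusted p = 0.000268). Mcm5 read 1138 and 712 against 360 and 241 (1.61 ± 0.25, adjusted p = 0.000959). Rrm1 read 874 and 759 against 482 and 265 (1.19 ± 0.24, adjusted p = 0.00533), and Mcm6 read 2083 and 1382 against 924 and 817 (0.97 ± 0.24, adjusted p = 0.0139). For each of the 4 genes both NT3-/-Bax-/- arrays lay above both Bax-/- arrays. All 4 probe sets of Mcm7 were higher, by 2.25 to 3.00, as were 2 of 3 probe sets of Mcm5 and of Mcm6, but for Rrm1 only the brightest of 3 was. The brightest probe sets of Mcm5, Mcm6 and Mcm7 are of a kind that can also bind related transcripts.

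Ube2c was lower, at 23.5 and 20.7 in NT3-/-Bax-/- against 50.5 and 49.9 in Bax-/- TrkCGFPon arrays (log2 difference -1.19 ± 0.18, adjusted p = 0.000677), and Cdk1 read 66.6 and 37.4 against 131 and 91.0 (-1.13 ± 0.30, adjusted p = 0.0211). Neither gene's groups overlapped. Mki67 read 215 and 84.6 in NT3-/-Bax-/- against 253 and 227 in Bax-/- TrkCGFPon arrays, and Top2a 88.4 and 48.8 against 142 and 120, and neither was called (adjusted p = 0.341 and 0.182). In NT3-/-Bax-/- replicate 1, Bub1b, Nusap1, Mki67 and Cdc20 read 473, 172, 215 and 153, against 46.0, 43.0, 84.6 and 56.7 in replicate 2, so the first array of this group was the higher one for each of these mitosis members. The Bub1b values are of its brightest pooled probe set, which was not its brightest in wild-type TrkCGFPoff arrays. Some calls depend on single arrays. The Cdk1 call was lost without Bax-/- TrkCGFPon replicate 1 or NT3-/-Bax-/- TrkCGFPon replicate 2 (adjusted p = 0.153 and 0.15), and the Mcm6 call without NT3-/-Bax-/- TrkCGFPon replicate 1 or Bax-/- TrkCGFPon replicate 2 (adjusted p = 0.126 and 0.061).

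Against wild-type TrkCGFPon cells, with the same NT3-/-Bax-/- arrays, 5 members rose and 3 fell, where 13.3% and 12.7% of all probe sets did. Over 36 members these counts, too, are near the shares of all probe sets. Mcm7 (log2 difference 2.72, adjusted p = 9.52e-05), Mcm6 (1.44, adjusted p = 0.000869), Rrm1 (1.19, adjusted p = 0.00346), Mcm4 (1.20, adjusted p = 0.012) and Mcm5 (0.78, adjusted p = 0.0375) rose. Ube2c (-1.12), Aurkb (-1.18) and Aurka (-1.29), the last at 55.5 and 87.0 in NT3-/-Bax-/- against 178 and 162 in wild-type arrays, fell. The Mcm5 and Mcm4 calls were lost without NT3-/-Bax-/- TrkCGFPon replicate 1 (adjusted p = 0.304 and 0.104) or wild-type TrkCGFPon replicate 2 (0.0905 and 0.106), the Mcm5 call also without wild-type TrkCGFPon replicate 1 (0.188), and the Aurka call without NT3-/-Bax-/- TrkCGFPon replicate 1 (0.0584).

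The TrkCGFPon and TrkCGFPoff comparisons of NT3-/-Bax-/- with Bax-/- share no arrays. The methods sort both populations from dissociated ganglia, and whether their arrays share animals is not given. The 4 members that rose in TrkCGFPon cells also rose in TrkCGFPoff cells, which is 100% of the 4 and 14.8% of the 27. With 27 of the 36 members raised in TrkCGFPoff cells, most members picked at random would also be among them. Of the other cell cycle genes in TrkCGFPon cells, 10 replication genes rose and 4 fell of 38, with Hells, a chromatin remodeler, at 1.64, Prim1, a primase subunit, at 1.45, Rfc3, of the clamp loader, at 1.39, and Gmnn, the inhibitor of Cdt1, at -1.46. Of 60 other mitosis genes, 3 rose and 7 fell, with Kif20b (-1.84), Iqgap3 (-1.45), Cdc25b (-1.32) and Spc25 (-1.14) the largest. Of 37 regulators, 4 rose and 8 fell: the kinase inhibitor Cdkn1c was higher by 2.69, and another inhibitor, Cdkn2b, fell by 2.94, E2f3 by 2.40 and the G1 kinase Cdk6 by 2.21. Glia markers fell in 6 of 14 genes in NT3-/-Bax-/- TrkCGFPon cells, summing to 6077 to 11740 against 16558 to 20093 in Bax-/-, fibroblast markers in 1 of 9, and endothelial and macrophage markers in 0 of 10 and 0 of 11, with Col1a1 at 49.6 and 61.4 against 74.0 and 40.4 and Csf1r at 50.9 and 48.8 against 67.5 and 60.5. Proprioceptor markers fell in 3 of 5, summing to 4512 to 6463 against 14682 to 15836. The part of these cells in the result was not tested.

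**Figure D3:**
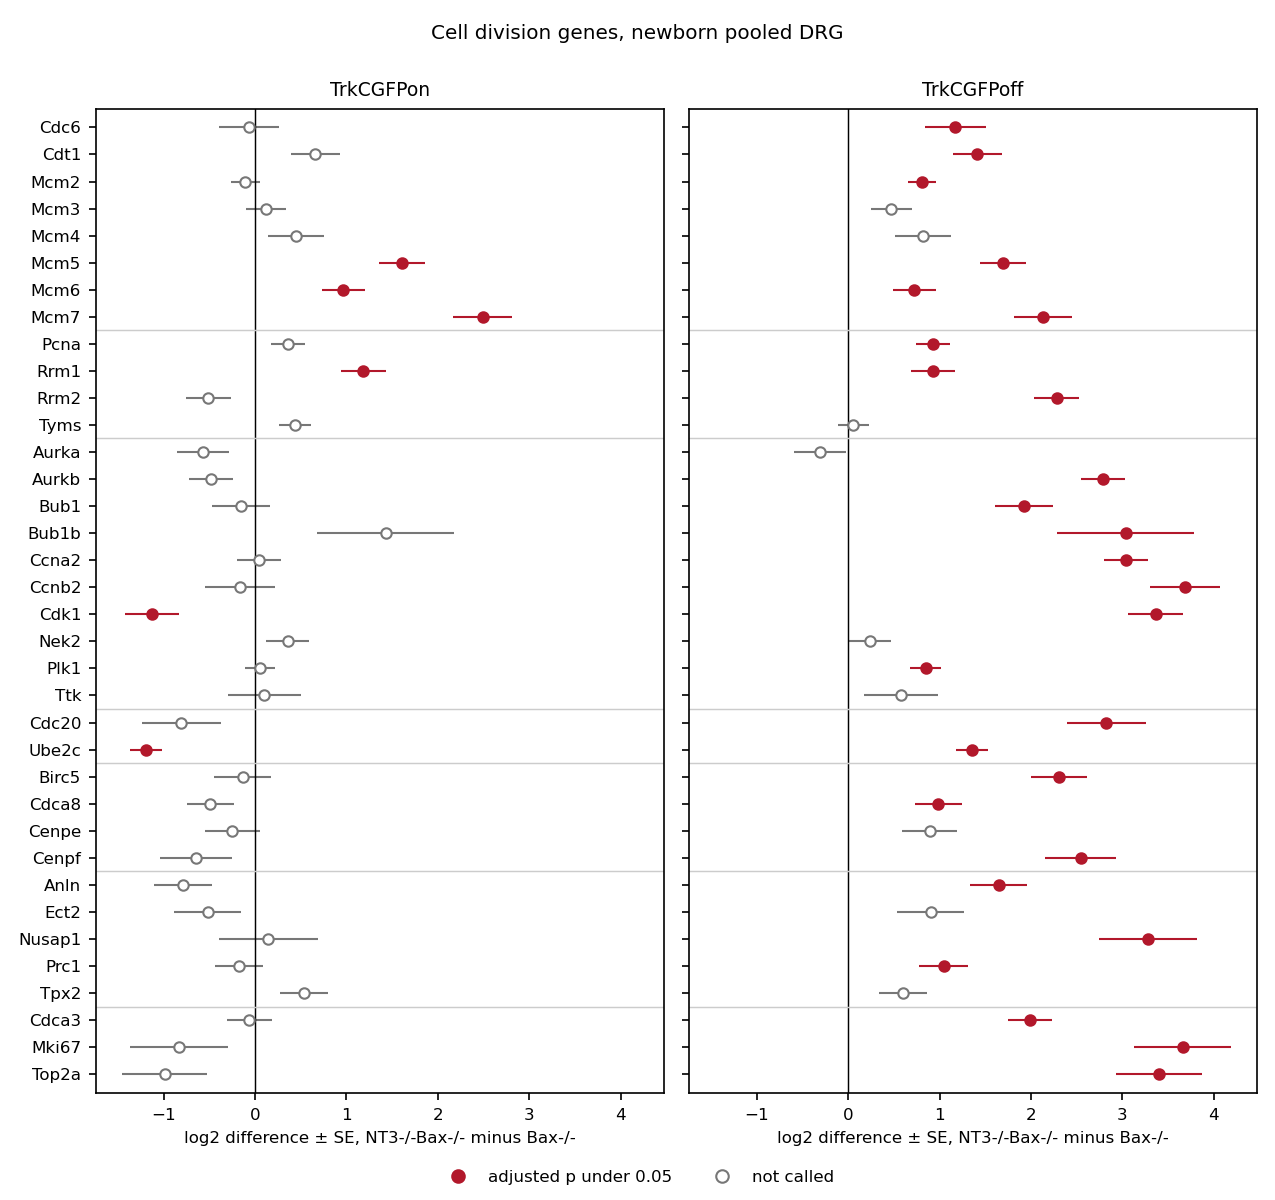
Log2 difference of each member, NT3-/-Bax-/- minus Bax-/-, with its standard error, in TrkCGFPon cells (left) and TrkCGFPoff cells (right), ordered by role, with filled red points for adjusted p under 0.05. In TrkCGFPon cells 4 replication members lie above 0 and 2 mitosis members below it among the called, and in TrkCGFPoff cells all 27 called members lie above 0.

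Within NT3-/-Bax-/- mice, TrkCGFPon cells were set against TrkCGFPoff cells of the same genotype, using the arrays already described. Here 25 members fell and 0 rose, where 8.94% of all probe sets fell and 10.4% rose, 19 of 24 in mitosis and 6 of 12 in replication, with a median of -1.89, against 0.03 for all probe sets. Aurkb read 14.1 and 12.7 in TrkCGFPon against 193 and 209 in TrkCGFPoff arrays (log2 difference -3.91, adjusted p = 1.15e-06). Anln read 68.2 and 51.8 against 676 and 922 (-3.73), and Rrm2 read 158 and 167 against 1225 and 1355 (-2.99). Mki67, Top2a, Cdk1 and Ccnb2 differed by -4.91, -4.68, -4.36 and -4.23, and Ccna2, Cdca3 and Ube2c by -2.58, -2.41 and -2.22. Mcm5, Mcm6, Mcm7, Cdt1, Rrm1 and Tyms were not called, with differences between -0.29 and 0.57, and nor were Aurka, Nek2, Ttk, Bub1b and Tpx2. All 14 glia and 10 endothelial markers, 8 of 9 fibroblast and 3 of 11 macrophage markers also fell, with glia summing to 6077 to 11740 in TrkCGFPon against 44856 to 52375 in TrkCGFPoff cells, endothelial to 454 to 502 against 3060 to 3368 and fibroblast to 1108 to 1665 against 31524 to 47539. Among other lists, 42 of 60 mitosis genes fell and 1 rose, led by Pbk (-4.56) and Cdca5 (-4.53), 9 of 38 replication genes fell and 2 rose, led by Pole2 (-2.18), and 13 of 37 regulators fell and 4 rose, led by Ccnd2 (-4.13) and Cdk6 (-3.27). The part of the other cell types in these differences was not tested.

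Fewer members were called between the populations in the other genotypes. In mlcNT3 mice 1 member rose and 3 fell in TrkCGFPon against TrkCGFPoff cells, where 4.18% of all probe sets rose and 5.84% fell. Ube2c rose, at 82.1 and 64.3 in TrkCGFPon against 31.9 and 32.9 in TrkCGFPoff arrays (log2 difference 1.17, adjusted p = 0.00104). Anln, at 64.1 and 75.1 against 325 and 244 (-2.02, adjusted p = 0.00125), Mcm4, at 517 and 293 against 1100 and 763 (-1.24, adjusted p = 0.0216), and Aurkb, at 20.7 and 33.7 against 51.2 and 52.1 (-0.97, adjusted p = 0.0219), fell. The groups of these 4 genes did not overlap. Mki67 read 54.9 and 179 in TrkCGFPon against 380 and 222 in TrkCGFPoff arrays, and Top2a 53.9 and 131 against 186 and 91.7, neither called. Without mlcNT3 TrkCGFPoff replicate 1, 2 members were called, Ube2c and Anln. The Aurkb call was also lost without TrkCGFPon replicate 1 or TrkCGFPoff replicate 2 (adjusted p = 0.177 and 0.116), and the Mcm4 call without TrkCGFPon replicate 2 (0.229), an omission with which Mki67 fell (-2.40, adjusted p = 0.0243). Fibroblast markers fell in 6 of 9 genes in mlcNT3 TrkCGFPon cells, summing to 602 to 940 against 4253 to 5023, and endothelial markers in 5 of 10, summing to 541 to 543 against 786 to 831. Glia markers fell in 3 of 14 and rose in 1, summing to 11372 to 12632 against 19128 to 22119. The part of these cells was not tested.

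In Bax-/- mice, where 4.05% of all probe sets rose and 3.77% fell, Cdt1 rose in TrkCGFPon cells, at 929 and 564 against 372 and 376 in TrkCGFPoff arrays (log2 difference 0.95, adjusted p = 0.0494), and Anln fell, at 155 and 68.0 against 249 and 256 (-1.30, adjusted p = 0.0237). Mki67 and Top2a read 253 and 227 and 142 and 120 in TrkCGFPon arrays, against 252 and 413 and 121 and 208 in TrkCGFPoff arrays. The marks of proliferation overlapped between the populations. Without TrkCGFPoff replicate 1 or replicate 2, 0 members were called by limma, and without TrkCGFPon replicate 1, 1 was, while the Anln call was lost without TrkCGFPon replicate 2 (adjusted p = 0.12). In wild-type mice, where 5.12% of all probe sets rose and 3.83% fell, Cdt1 alone rose, at 937 and 884 in TrkCGFPon against 343 and 362 in TrkCGFPoff arrays (1.37 ± 0.27, adjusted p = 0.0061), and 0 members fell. Cdt1, the licensing factor that loads the helicase, was higher in the TrkCGFPon population of wild-type mice while Mki67, at 97.4 and 150 against 135 and 156, and Top2a, at 56.6 and 92.8 against 53.0 and 68.5, overlapped. The Cdt1 call was lost without TrkCGFPon replicate 1 or TrkCGFPoff replicate 1 (adjusted p = 0.0562 and 0.057). Fibroblast markers fell in 2 of 9 genes in TrkCGFPon cells of Bax-/- mice, summing to 1376 to 1422 against 2801 to 5143 in TrkCGFPoff cells, and in 2 of 9 in wild-type mice, summing to 815 to 1124 against 3961 to 4556. Endothelial markers fell in 2 of 10 and 1 of 10. Glia markers summed to 16558 to 20093 in TrkCGFPon against 21146 to 23643 in TrkCGFPoff cells of Bax-/- mice. In wild-type mice they summed to 14246 to 16735 against 19315 to 20504, so the TrkCGFPon arrays held glia signal too. The part of these cells in the Cdt1 difference and the other differences was not tested.

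Other cell cycle genes of wild-type TrkCGFPon cells also differed. Racgap1, a cytokinesis regulator that pairs with Ect2, read 909 and 949 in TrkCGFPon against 134 and 184 in TrkCGFPoff arrays (log2 difference 2.56), and 6 of 60 other mitosis genes rose and 0 fell, Iqgap3 (1.46), Cks2 (1.34) and Spc25 (1.34) among them. The inhibitor Cdkn2b rose by 2.90, the Cdk1-inhibiting kinase Wee1 by 2.34 and the E-type cyclins Ccne2 and Ccne1 by 2.28 and 1.71. In all, 5 regulators rose and 3 fell of 37. Of 38 other replication genes, Dbf4 rose (1.13) and Tk1 (-1.35) and Pole (-1.31) fell. All 5 proprioceptor markers rose in TrkCGFPon cells of wild-type, Bax-/- and mlcNT3 mice, and 4 of 5 did in NT3-/-Bax-/- mice.

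Against wild-type cells of the same population, 0 members were called by limma in mlcNT3 TrkCGFPon cells (0.209% of all probe sets called), Bax-/- TrkCGFPon cells (0.5%), mlcNT3 TrkCGFPoff cells (0.00444%) and Bax-/- TrkCGFPoff cells (0.178%). At an unadjusted p under 0.05 the counts were 3, 5, 5 and 2, and the matching counts over all probe sets are not given here. The methods' test after Benjamini-Hochberg adjustment called 0 in each. It did so too where limma called 27, so its 0 carries no weight here. With 2 arrays a group this does not show that the levels were alike. Mki67 read 252 and 413 in Bax-/- against 135 and 156 in wild-type TrkCGFPoff arrays, and was not called (log2 difference 1.15, adjusted p = 0.481). Groups of 2 arrays often do not overlap without any difference, so the lack of overlap of this member does not show a difference either.

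The difference between the populations was itself compared between genotypes. The TrkCGFPon minus TrkCGFPoff difference was more negative in NT3-/-Bax-/- than in Bax-/- mice for 17 members, where 9.65% of all probe sets were called and 5.13% were negative, and than in wild-type mice for 19, where 10.4% were called and 5.71% were negative. It was more positive for 0 members in either. Both use the NT3-/-Bax-/- arrays. Against Bax-/-, Cdk1 differed by -4.49, Mki67 by -4.49, Top2a by -4.39 and Ccnb2 by -3.85. For Mcm5 (-0.08), Mcm6 (0.24), Mcm7 (0.36) and Rrm1 (0.26), the members raised in both populations, no difference between the populations' responses was called. The same contrast called 0 members in Bax-/- (0% of all probe sets) and mlcNT3 mice (0.0422%) against wild-type by limma, with 0 and 3 at an unadjusted p under 0.05.

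In single segments of wild-type p0 mice, sorted with fewer cells, 8 of 24 mitosis members fell and 1 rose in TrkCGFPon against TrkCGFPoff cells at L5, and 7 fell and 0 rose at L1, while the others were not called. Of all 36 members at L5, 11 members fell and 2 rose, where 10% of all probe sets fell and 9.91% rose, and at L1, 10 fell and 1 rose, where 8.92% fell and 9.03% rose. The medians were -0.60 and -0.59, against 0.04 and 0.02 for all probe sets. Mki67 read 46.4, 34.0 and 46.7 in L5 TrkCGFPon arrays against 136, 268 and 469 in L5 TrkCGFPoff arrays (log2 difference -2.62 ± 0.47, adjusted p = 0.00222). At L1 it read 23.5 and 57.2 in TrkCGFPon against 327, 146 and 344 in TrkCGFPoff arrays (-2.79 ± 0.53, adjusted p = 0.00329). All TrkCGFPon arrays lay below all TrkCGFPoff arrays at both levels. Top2a read 35.1, 105 and 35.9 in L5 TrkCGFPon against 121, 171 and 420 in L5 TrkCGFPoff arrays (-2.01, adjusted p = 0.0213). At L1 it read 62.8 and 74.1 against 247, 101 and 263, and was not called (adjusted p = 0.13).

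Members that act in spindle assembly and cell separation were among the most clearly lower. Anln, the contractile ring scaffold, read 136, 60.0 and 56.5 in L5 TrkCGFPon against 176, 236 and 237 in L5 TrkCGFPoff arrays (log2 difference -1.47, adjusted p = 0.00382), and 71.5 and 54.3 against 310, 352 and 367 at L1 (-2.46, adjusted p = 0.000298). Prc1, which bundles the central spindle, read 139, 87.6 and 98.9 in L5 TrkCGFPon against 250, 265 and 361 in L5 TrkCGFPoff arrays (-1.44, adjusted p = 0.000413), and 122 and 113 against 283, 245 and 341 at L1 (-1.29, adjusted p = 0.00202). Nusap1 read 33.8, 32.8 and 41.0 against 97.6, 115 and 239 at L5 (-1.96, adjusted p = 0.000923), and 78.8 and 56.5 against 194, 112 and 155 at L1 (-1.17). None of these groups overlapped. The anaphase activator Cdc20 (-1.07 and -1.10 at L5 and L1), the checkpoint kinases Bub1 and Ttk (-1.05 and -0.67, L5) and the kinetochore protein Cenpf (-1.21, L1) fell too, as did Cdk1 at L1, with 41.8 and 53.0 against 174, 96.9 and 157 (-1.56, adjusted p = 0.0227).

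Replication members were split. Mcm4 read 635, 489 and 454 in L5 TrkCGFPon against 986, 1040 and 1130 in L5 TrkCGFPoff arrays (log2 difference -1.01, adjusted p = 0.00407), and Mcm7 read 480, 494 and 410 against 730, 770 and 659 (-0.64, adjusted p = 0.00844). At L1 Mcm4 (-0.83) and Mcm7 (-0.63) fell as well, and so did Rrm2, at 44.0 and 84.9 against 151, 121 and 175 (-1.27, adjusted p = 0.0173). Mcm5 fell at L5, at 146, 125 and 150 against 207, 219 and 265 (-0.71, adjusted p = 0.00455). Cdt1 went the other way, as in the pooled wild-type and Bax-/- sorts. It read 504, 510 and 350 in L5 TrkCGFPon against 254, 251 and 216 in L5 TrkCGFPoff arrays (0.90, adjusted p = 0.0135), and 518 and 759 against 163, 267 and 233 at L1 (1.53, adjusted p = 0.00116). Every TrkCGFPon array lay above every TrkCGFPoff array. Nek2, a centrosome kinase, rose at L5 (0.76, adjusted p = 0.0411), at 36.2, 61.4 and 27.8 against 23.5, 20.8 and 25.8, but its probe sets disagree. Another fell, at 16.5, 11.6 and 16.8 against 19.0, 24.1 and 24.8 (-0.61, adjusted p = 0.0303), and the other two were not called (0.05 and -0.07). Of the members that fell, 7 did so at both levels (Anln, Cdc20, Mcm4, Mcm7, Mki67, Nusap1 and Prc1), which is 63.6% of the 11 at L5 and 70% of the 10 at L1.

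Without L5 TrkCGFPoff replicate 3, 7 members were called at L5, against 13 with all arrays. Cdt1 was not called without that array or without L5 TrkCGFPon replicate 2 (adjusted p = 0.0521 and 0.0502), and Top2a not without that array or without L5 TrkCGFPon replicate 1 or replicate 3 (0.0792, 0.0738 and 0.0711). At L1, the 11 called members became 5 without TrkCGFPon replicate 1 or TrkCGFPoff replicate 3, 6 without TrkCGFPoff replicate 1 and 7 without TrkCGFPon replicate 2. Cdk1 was lost in each of these, and Mcm4, Mcm7 and Rrm2 in at least 1.

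Fibroblast markers fell in 5 of 9 genes in L5 TrkCGFPon cells (summed 1175 to 1783 against 7247 to 11004 in TrkCGFPoff) and 6 of 9 at L1 (999 to 1337 against 6779 to 8482). Endothelial markers fell in 10 of 10 at L5 (548 to 695 against 1875 to 2189) and 6 of 10 at L1 (574 to 618 against 1138 to 1629), with Cdh5 at 20.9, 25.4 and 23.5 against 206, 116 and 172 at L5. Glia markers fell in 5 of 14 and rose in 1 at each level, summing to 13250 to 15855 against 20889 to 23437 at L5 and 13749 to 17027 against 23641 to 28805 at L1. The summed levels of these 3 lists were thus higher in the same TrkCGFPoff arrays as the mitosis members. Macrophage markers fell in 4 of 11 at L5 (409 to 431 against 918 to 1078) and 0 of 11 at L1 (335 to 337 against 342 to 2038). The part of these cells in the result was not tested.

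**Figure D4:**
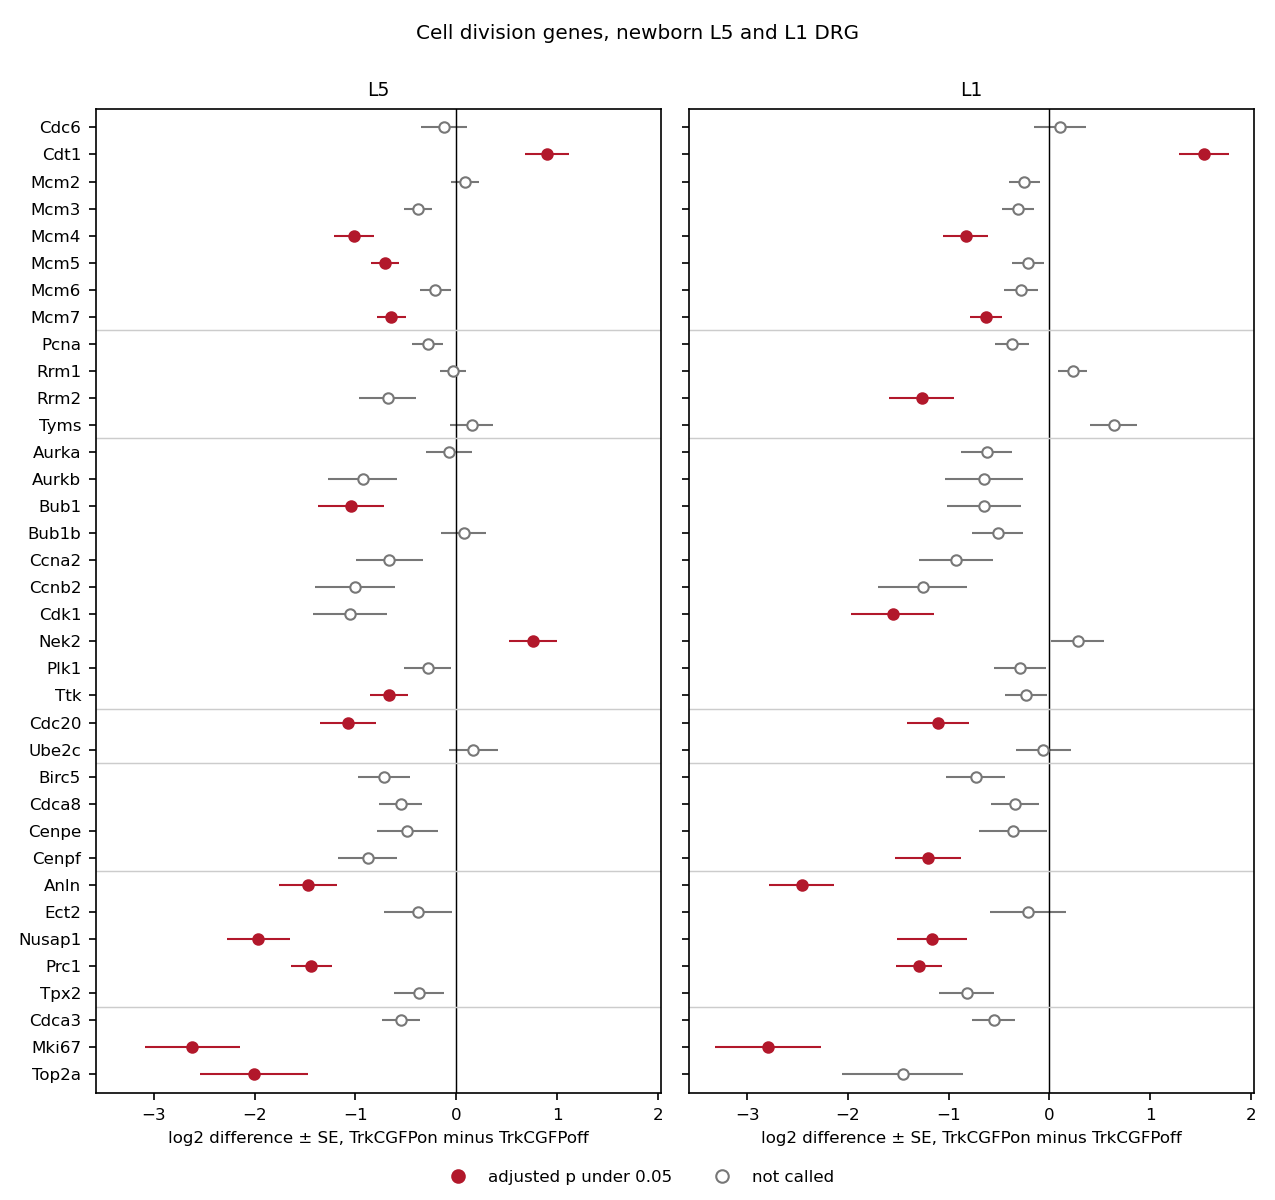
Log2 difference of each member, TrkCGFPon minus TrkCGFPoff, with its standard error, at L5 (left) and L1 (right) in wild-type p0 mice, ordered by role, with filled red points for adjusted p under 0.05. Called mitosis members lie below 0 at both levels apart from Nek2 at L5, and Cdt1 lies above 0 at both (0.90 at L5 and 1.53 at L1).

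Of the other mitosis genes, 12 fell and 5 rose at L5 and 11 fell and 2 rose at L1, of 60. Racgap1 was again higher in TrkCGFPon cells (log2 difference 1.63 at L5 and 2.47 at L1), while Pbk (-1.47 and -1.93) and Cep55 (-1.77 and -1.64) were lower. Of 38 other replication genes, 5 rose and 4 fell at L5 and 5 rose and 6 fell at L1, with Tk1 (-1.35 and -1.44), Pold2 (-0.93 and -1.94) and Pole (-0.77 and -1.68) lower and Pola2 (0.65 and 1.13) higher at both levels. Cdkn2b (2.99 and 2.40) and Wee1 (2.14 and 2.19) led the regulators, of which 6 rose and 9 fell at L5 and 7 rose and 7 fell at L1, of 37. Between the levels 0 members were called by limma in TrkCGFPon cells (0.397% of all probe sets) or in TrkCGFPoff cells (0.16%), with 4 and 1 at an unadjusted p under 0.05, and the TrkCGFPon minus TrkCGFPoff difference at L5 minus that at L1 called 0 as well (0.0666%), with 2 at an unadjusted p under 0.05. Of all 45037 probe sets, 4227 in TrkCGFPon and 2386 in TrkCGFPoff cells were under that unadjusted p between the levels. The methods' test with Benjamini-Hochberg adjustment called 0 in both comparisons of levels, as it did where limma called 27 members.

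In whole adult DRG few members differed between groups. Mki67 read 65.3, 59.1 and 60.2 in L5 with a wheel, against 79.6, 277 and 176 in L5 without one, and 107, 89.2 and 79.8 in L1 with a wheel, against 155, 80.2 and 98.0 in L1 without one. Top2a, here on another probe set than at p0, read between 44.1 and 62.7 in all 12 arrays, but that probe set did not separate the populations at p0 L5 either (48.5 in TrkCGFPon and 46.8 in TrkCGFPoff cells on average). The Top2a probe set used at p0 read 67.4, 48.4 and 47.2 in L5 with a wheel, against 52.1, 131 and 70.5 in L5 without one, and 43.5, 48.1 and 42.0 in L1 with a wheel, against 53.8, 33.6 and 38.5 in L1 without one. Running did not change it past the threshold at L5 (log2 -0.55, adjusted p = 0.298). L5 wheel arrays lay below all L5 no wheel arrays for Mki67, but its difference was not called (log2 -1.35, adjusted p = 0.0671). Running called 0 members by limma at L5 (0.48% of all probe sets called) and at L1 (0.242%), with 9 and 0 at an unadjusted p under 0.05, and the wheel minus no wheel difference at L5 minus that at L1 called 0 (0%), with 4 at an unadjusted p under 0.05. Of all 45037 probe sets, 7367 at L5 and 5283 at L1 were under that unadjusted p for running. For the difference between levels that count is not given here. The methods' test after Benjamini-Hochberg adjustment called 0 for running at both levels, as it did where limma called 27 members. Its 0 says nothing for or against an effect.

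The L5 arrays without a wheel differed among themselves. Replicates 2 and 3 stood above replicate 1 for Rrm2 (221 and 122 against 62.5), Nusap1 (123 and 82.1 against 56.7), Cdc6 (66.7 and 35.9 against 23.8) and Cdt1 (143 and 106 against 68.2). The L5 wheel arrays were more even, at 63.1 to 80.7 for Rrm2 and 48.7 to 53.7 for Nusap1. Without L5 no wheel replicate 1, 7 members fell with the wheel at L5, Mki67 (-1.84), Rrm2 (-1.15), Nusap1 (-0.97), Cdca8 (-0.72), Cdc6 (-0.71), Cdt1 (-0.64) and Mcm5 (-0.56). The share of all probe sets called in that fit is not given here, so the 7 cannot be set against it. Each array was left out in turn, and leaving out any of the other 5 L5 arrays called 0. Macrophage markers summed to 2332 to 2930 in L5 with a wheel against 2624 to 5560 in L5 without one, and fibroblast markers to 10958 to 13627 against 12614 to 18314, with 0 of 11 and 0 of 9 called. Col1a1 read 333, 293 and 230 with a wheel and 276, 718 and 439 without one, and Csf1r 1140, 934 and 934.6 with and 1045, 1470 and 1266 without, so both were highest in L5 no wheel replicate 2, as Mki67 was. Red blood cell markers, with 0 of 5 called, summed to 197, 161 and 188 with a wheel and 203, 537 and 292 without one, in the same order of no wheel replicates as Mki67, Rrm2, Cdc6 and Cdt1. The part of these cells was not tested.

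**Figure D5:**
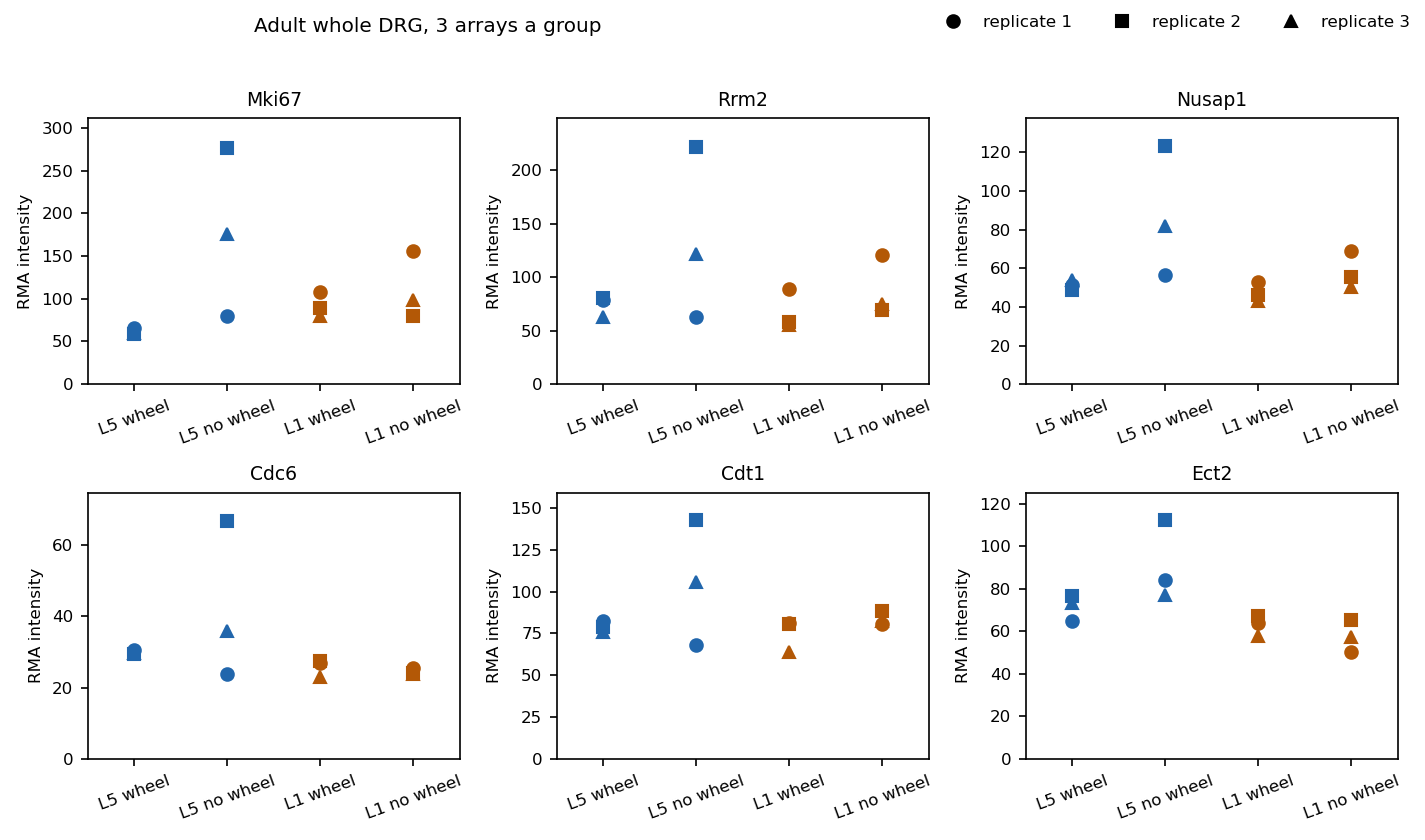
Linear intensity of Mki67, Rrm2, Nusap1, Cdc6, Cdt1 and Ect2 on each of the 12 adult whole DRG arrays, 1 point per array (circle, replicate 1; square, replicate 2; triangle, replicate 3), in L5 wheel, L5 no wheel, L1 wheel and L1 no wheel from left to right. For each of the 6 genes the range is widest in L5 no wheel, where Mki67 runs from 79.6 to 277, against 59.1 to 65.3 in L5 wheel.

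Between levels, Ect2, the cytokinesis exchange factor, was higher in L5 than in L1 without a wheel, at 83.9, 112 and 76.9 against 50.0, 65.1 and 57.1 (log2 difference 0.65 ± 0.13, adjusted p = 0.0117), where 1.92% of all probe sets rose and 2.76% fell. The groups did not overlap. The Top2a probe set used at p0 was also higher in L5 than in L1 without a wheel (0.93, adjusted p = 0.0494), with overlap of the groups, while its brightest probe set was not called. Without L5 no wheel replicate 1, 8 members were higher in L5, Mki67 (1.05), Cdc6 (1.00), Rrm2 (0.94), Nusap1 (0.80), Ect2 (0.70), Nek2 (0.61), Cdt1 (0.55) and Cdk1 (0.47). For that fit, too, the share of all probe sets called is not given here. With all arrays, macrophage markers rose in 3 of 11 genes in L5 without a wheel, summing to 2624 to 5560 in L5 against 2006 to 2595 in L1. Csf1r read 1045, 1470 and 1266 against 1015, 908 and 813, and the part of these cells was not tested. With a wheel, Mcm5 was lower in L5 than in L1, at 129, 140 and 116 against 205, 176 and 175 (-0.53 ± 0.13, adjusted p = 0.0316), where 3.26% of all probe sets rose and 2.17% fell. The groups did not overlap either, and the Mcm5 call was lost on leaving out any of the L1 wheel replicates 1, 2 and 3 or L5 wheel replicate 1 or 3 (adjusted p of 0.063 to 0.118). With all arrays, 1 of 36 members was called between levels in each condition, near or below the shares of all probe sets. These counts do not set the members apart. Racgap1, from the other mitosis genes, was higher in L5 in both conditions (1.10 with and 0.82 without a wheel), with 91.3, 91.8 and 71.2 in L5 against 40.3, 34.2 and 43.8 in L1 with a wheel. Of 60 other mitosis genes, 1 rose and 2 fell in L5 with a wheel and 5 rose and 1 fell without one. Of 38 other replication genes, 1 rose (Tk1, 0.86 with and 0.57 without a wheel) and 1 fell (Lig1, -0.64 and -0.84) in each. Of 37 regulators, 5 rose with a wheel and 1 without, Cdkn2b (0.41 and 0.50) in both.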

How the data were processed

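RNA of sorted p0 DRG cells and of whole adult DRG was amplified and hybridised to Affymetrix Mouse Genome arrays. The authors made the deposited intensity values from the scanner files with RMA in the affy package of R (version 2.9 in the submitters' processing notes), 1 linear value per probe set and array, with joint or separate normalization of the 3 sets not given in the sources used here. MAS5 calls were not used here. Array medians lay between 6.02 and 6.18 on the log2 scale, and no column belonged to another sample. Within groups of the pooled set the lowest array correlation was 0.9716, between the NT3-/-Bax-/- TrkCGFPoff arrays. The wild-type pairs had 0.9941 (TrkCGFPon) and 0.9937 (TrkCGFPoff). The number of arrays limits the precision.

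Values were log2 transformed without a pseudocount, 64 control probe sets were left out, and 45037 probe sets were tested with limma 3.58.1 in R 4.3.3, with 1 fit for each of the 3 sets of arrays and Benjamini-Hochberg adjustment over all probe sets. A change was called at an adjusted p under 0.05. Genes were named through GEO's platform annotation: 34958 probe sets had 1 gene, 932 several and 9211 none, and genes were named only from the first. A gene was represented by its brightest probe set over the arrays of the fit, and levels were not compared between genes. Every member was accounted for, values per array were given for up to 8 called members with the lowest adjusted p in a comparison and for Mki67 and Top2a, and up to 4 called genes with the largest change were named from each of 3 other cell cycle lists. A few further members were given per array after their values were seen. Members, lists and tests were chosen with earlier results of these data known. Promoters came from RefSeq (GRCm38.p6), where Tpx2, Ccna2, Mcm4 and Aurkb were not matched. The fit was tested on simulated data.

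Alternatives were array weights, a variance trend, quantile normalization, a filter on probe sets under a mean log2 of 6, the mean of a gene's probe sets, the replicate number as a block, a fit on the 2 groups only, each array left out in turn, and the thresholds and the 2-sample test of the methods (p of at most 0.02, with 1.5 fold). Leaving out arrays for the differences between responses, and a crossed pairing, were added after seeing the data.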

Additional observations from a re-analysis of the deposited data

Results flagged for a closer look

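The TrkCGFPon minus TrkCGFPoff difference was set between genotypes in the same fit, and 19 members responded differently in NT3-/-Bax-/- than in wild-type mice and 17 differently in NT3-/-Bax-/- than in Bax-/- mice (limma, adjusted p under 0.05), all in the negative direction, that is, with less in TrkCGFPon relative to TrkCGFPoff cells. The 2 tests share the NT3-/-Bax-/- arrays. Against wild-type, the log2 difference of differences was -3.95 for Aurkb, -2.77 for Ube2c, -4.47 for Cdk1, -4.94 for Top2a, -2.48 for Ccna2, -3.85 for Ccnb2, -2.45 for Rrm2 and -3.71 for Cenpf. Against Bax-/-, it was -4.49 for Cdk1, -2.54 for Ube2c, -3.27 for Aurkb, -2.99 for Ccna2, -2.79 for Rrm2, -3.85 for Ccnb2, -4.39 for Top2a and -2.05 for Cdca3. In NT3-/-Bax-/- mice Cdk1 read 66.6 and 37.4 in TrkCGFPon and 923 and 1144 in TrkCGFPoff arrays, while in Bax-/- mice it read 131 and 91.0 and 92.5 and 108. Fibroblast, endothelial and glia markers were highest in the same NT3-/-Bax-/- TrkCGFPoff arrays, and their part in these differences was not tested.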

How the results depend on the processing

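With 2 or 3 arrays a group, small changes in dim members cannot be shown. Of 380 alternative counts of called members over 26 comparisons, 303 stayed within 1.5 times the main count, 46 were lower, 31 were higher and 0 turned direction. Of 1138 alternatives for 99 results of single members, 1066 kept direction and call, 64 lost the call, 8 gained it and 0 turned. Where a count below differs from that in the report, the cause was not tested.

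In TrkCGFPon against TrkCGFPoff cells of wild-type mice (1 member called), array weights called 6, quantile normalization 4, the filter on dim probe sets 3, the mean of probe sets 4, an unadjusted p of at most 0.02 with 1.5 fold 3, the fit on the 2 groups only 7, and the methods' test with that threshold 3. In Bax-/- mice (2 called), a variance trend, array weights and the mean of probe sets each called 1, and the fit on the 2 groups only and the methods' test 0. In mlcNT3 mice (4 called), array weights called 8, the unadjusted p 8, the fit on the 2 groups only 10 and the methods' test 1. In NT3-/-Bax-/- mice (25 called), the fit on the 2 groups only called 14 and the methods' test 10.

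In NT3-/-Bax-/- against Bax-/- TrkCGFPon cells (6 called), the fit on the 2 groups only called 2 and the methods' test 1, and against wild-type TrkCGFPon cells (8 called) the methods' test called 1. In NT3-/-Bax-/- against wild-type TrkCGFPoff cells (30 called) it called 19. Against wild-type cells with 0 called, the unadjusted p called 2 in Bax-/- TrkCGFPon, 2 in mlcNT3 TrkCGFPon, 2 in Bax-/- TrkCGFPoff and 1 in mlcNT3 TrkCGFPoff cells, the methods' test 1 in Bax-/- TrkCGFPon, 1 in mlcNT3 TrkCGFPon and 1 in mlcNT3 TrkCGFPoff cells, and array weights and the fit on the 2 groups only 1 each in mlcNT3 TrkCGFPon cells.

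At p0, the methods' test called 7 at L5 (13 called) and 2 at L1 (11 called) in TrkCGFPon against TrkCGFPoff cells, and 1 in L5 against L1 TrkCGFPoff cells (0 called). In adult L5 against L1 without a wheel (1 called), array weights called 5, the unadjusted p 2, the fit on the 2 groups only 0 and the methods' test 0, and with a wheel (1 called) array weights called 2, the unadjusted p 0, the fit on the 2 groups only 4 and the methods' test 0. In L5 with against without a wheel (0 called), array weights called 2, the filter on dim probe sets 1 and the unadjusted p 2. After Benjamini-Hochberg adjustment the methods' test called 3 at p0 L5, 1 at p0 L1 and 0 in every other comparison of 2 groups.

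The replicate numbers were taken only as names, since in no comparison with 3 pairs were all same-numbered correlations of deviations over 0.1, although all were above 0 in p0 L5 TrkCGFPon against TrkCGFPoff cells (0.0849, 0.113 and 0.203) and in p0 L5 against L1 TrkCGFPoff cells (0.116, 0.0626 and 0.23). In the pooled TrkCGFPon against TrkCGFPoff comparisons, with 2 pairs each, both pairs have the same value by construction. It was 0.158 in NT3-/-Bax-/-, 0.00768 in mlcNT3, 0.283 in Bax-/- and 0.197 in wild-type mice. A pairing of these arrays is thus possible. The replicate block changed 2 of 26 counts, to 7 in p0 L1 TrkCGFPon against TrkCGFPoff cells and to 2 in adult L5 against L1 without a wheel. A crossed pairing of Bax-/- and wild-type TrkCGFPoff arrays, whose same-numbered correlation was -0.109, called 0.

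Leaving out 1 array at a time gave 0 to 1 called in wild-type, 0 to 2 in Bax-/-, 2 to 4 in mlcNT3 and 22 to 25 in NT3-/-Bax-/- TrkCGFPon against TrkCGFPoff cells. It gave 6 to 8 in NT3-/-Bax-/- against Bax-/- and 6 to 9 against wild-type TrkCGFPon cells, and 20 to 28 and 27 to 28 in the TrkCGFPoff cells. In p0 L5 and L1 it gave 7 to 18 and 5 to 10, in adult L5 against L1 without a wheel 1 to 8 and with a wheel 0 to 1, and for the wheel at L5 0 to 7 and at L1 0. For the differences between responses it gave 14 to 19 in NT3-/-Bax-/- against Bax-/-, 16 to 20 against wild-type, 0 to 1 for the wheel and 0 for the others.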
